A study of Homo sapiens with 6 samples.

Results

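The genes described here encode subunits, other than the deacetylases, of the large corepressor complexes in which histone deacetylases (HDACs) work. They were chosen by name: 33 genes that code for subunits of the SIN3, NuRD, CoREST and NCoR complexes, with the repressor REST that recruits CoREST. The rule used no measured value, though the list was drawn up with earlier results of these data known. All 33 were found among the 36601 genes of the count matrices and all 33 were among the 16763 genes tested. By complex they were 13 SIN3 subunits, 2 histone chaperones shared by SIN3 and NuRD, 9 NuRD subunits, 5 genes of CoREST and REST, and 4 NCoR subunits.

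The samples are cells of SK-N-BE(2)-C, a human neuroblastoma cell line with amplified MYCN, and were profiled by Seq-Well S3, a microwell method for single-cell RNA sequencing that counts molecules by unique molecular identifiers (UMIs). There were 3 groups of 2 libraries each. DMSO, the solvent, was the control. Trichostatin A (TSA) is a hydroxamate that blocks the catalytic zinc site of class I and II HDACs, and E6R is, by the title of the series, an inhibitor of HDAC complexes that is not directed at the enzyme. Doses, exposure times and the chemistry of E6R are not given in the sources used here, so TSA and E6R were compared as used and not at matched strength. The labels do not say whether the libraries of a group came from separate cultures, so p-values measure the spread between these libraries, which may be technical.

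HDAC1, HDAC2 and HDAC3 have little specificity of their own and are brought to chromatin as parts of multi-subunit complexes. A scaffold holds the deacetylase, and further subunits read histone marks or methylated DNA or dock onto sequence-specific repressors. SIN3, NuRD and CoREST carry HDAC1 or HDAC2, whereas NCoR carries HDAC3. REST uses SIN3 and CoREST to keep neuronal genes off in cells that are not mature neurons.

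After a minimum of 500 genes per barcode and at most 20% mitochondrial UMIs, 17589 cells remained, between 1861 and 3946 per library. Their UMIs summed to 4206366 and 4793493 in the DMSO libraries, 14282282 and 13318200 in the TSA libraries and 15781024 and 26180262 in the E6R libraries. All tests used these sums per library, since cells of a library are not replicates. E6R replicate 2 stood apart in that 1% of its cells carried 22.9% of its UMIs, against 8.95% to 15.6% in the other 5 libraries. Mitochondrial genes made up 1.55% and 1.51% of the E6R sums and between 5.83% and 9.71% of the others. Any pair of libraries shared 11 to 58 cell barcodes, at most 2.11% of the smaller library. The adrenergic markers that define this line's lineage summed to between 649.5 and 2030 CPM (UMIs per gene scaled to a common library total) in every library, while the summed immune markers stayed between 7.84 and 13.8 CPM, nearly all of it CD68. PTPRC was at most 0.569 CPM.

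In TSA-treated cells 14 of the 33 corepressor subunits changed. Of the SIN3 subunits 4 of 13 rose (SIN3A, SAP130, SUDS3 and ING1) and none of the 13 fell. SINHCAF, a SIN3 subunit outside the 33, fell 3.4-fold (83.9 and 64.5 CPM with DMSO, 23.0 and 20.6 with TSA; log2 -1.76 ± 0.21, adjusted p = 0.00161), more than any SIN3 member rose. In NuRD 4 of 9 fell (MBD3, CHD3, MTA3 and MTA1) and GATAD2B rose. All 4 NCoR subunits changed, with TBL1XR1, TBL1X and NCOR1 lower and GPS2 higher, and RCOR2 fell in CoREST. In all 6 genes rose and 8 fell at an adjusted p below 0.05 in edgeR's quasi-likelihood test with Benjamini-Hochberg adjustment over all genes. The share of 42.4% compares with 29.7% of all genes, and with 38.7% of the 9184 genes whose mean CPM lay in the members' range of 10.4 to 667, so the members were called about as often as genes of like abundance. Among those genes of like abundance 20.4% rose and 18.3% fell, and among all genes 16.2% rose and 13.5% fell. The median log2 fold change of the 33 was 0.23, and that of all genes was -0.01. With scaling by total counts only both were lower, at -0.0816 and -0.321, so the members' median changed sign and stayed above that of all genes. The count rested on having both libraries of each group. It was 4 without TSA replicate 2, 5 without TSA replicate 1, 5 without DMSO replicate 1 and 9 without DMSO replicate 2. The share of all genes called fell in the same fits, to 7.79%, 9.84%, 14% and 15%.

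E6R against DMSO gave no called member, as it gave no called gene (0% of 16763). The smallest adjusted p of a member was 0.205. At an unadjusted p below 0.05 there were 7 members, all higher with E6R (SAP30, RBBP4, RBBP7, CHD3, MTA2, KDM1A and TBL1XR1). This is 21.2% of the members, against 17.4% of all genes and 16.1% of genes in the same range of abundance. DESeq2 on the same sums called 3 of them (RBBP4 with an adjusted p of 0.0013, KDM1A with 0.0265 and SAP30 with 0.0304), and edgeR without the low-count filter called those and TBL1XR1. Of all genes, DESeq2 called 2.65% and edgeR without that filter 3.47%. The median fitted standard error of a member was 0.22 on the log2 scale.

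E6R against TSA, which compares both compounds directly, called 21 of the 33 members, 13 higher and 8 lower with E6R. The share of 63.6% compares with 38.2% of all genes and 45.8% of genes in the members' range of abundance. Of all genes 18.7% were higher and 19.5% lower with E6R, and in the members' range 26.2% were higher and 19.5% lower. In this comparison 7 SIN3 subunits were lower with E6R and SAP30 was higher, while RBBP4, 5 NuRD subunits, 3 of CoREST and 3 of NCoR were higher and only GPS2 among those was lower. It shares the TSA libraries with the comparison of TSA and DMSO, and 13 members were called in both. Without TSA replicate 1 the count was 7 (17.7% of all genes) and without TSA replicate 2 it was 8 (14.4%), whereas leaving out either E6R library, replicate 2 included, left 19 or 20.

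**Figure D1:**
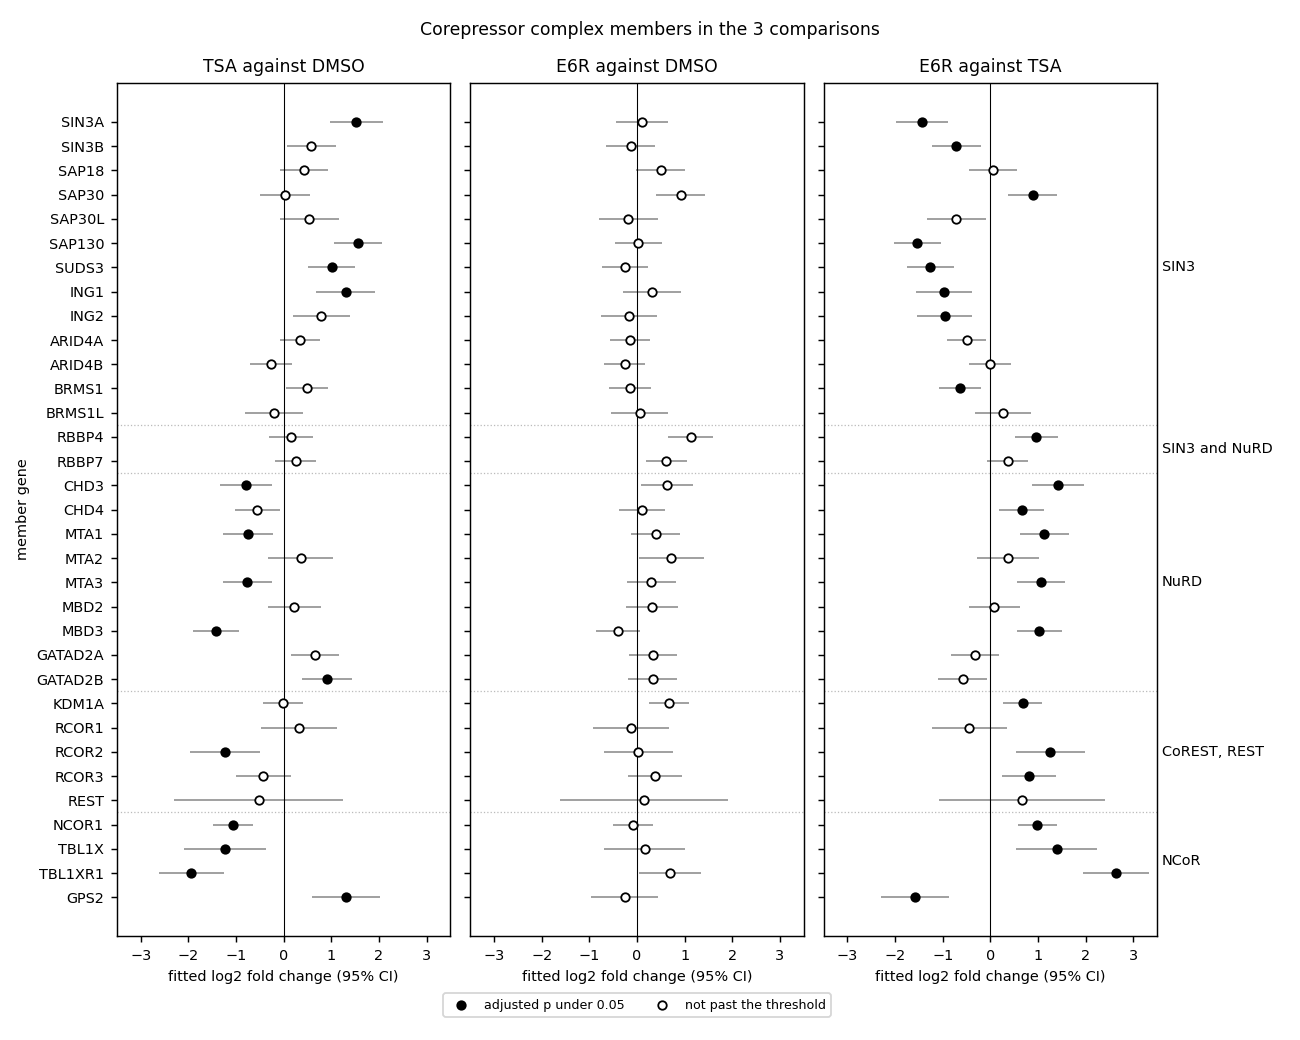
Fitted log2 fold change of each of the 33 members (rows, grouped by complex) with its 95% confidence interval, for TSA against DMSO, E6R against DMSO and E6R against TSA; filled points have an adjusted p below 0.05. Filled points number 14, 0 and 21 from left to right, and in the left panel those of SIN3 lie right of 0 while most of NuRD, CoREST and NCoR lie left of it.

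Promoter sequence was matched from RefSeq for 31 of the 33 genes (46 start sites, build GRCh38.p14). The sequences below are the 250 bases before an annotated start of a scaffold and a bridging subunit that rose with TSA (SIN3A and GATAD2B), of 2 subunits that fell (MBD3 and TBL1XR1), and of REST, whose level differed most between replicates. They lie at chr15:75455816-75456065 (minus strand), chr1:153922973-153923222 (minus), chr19:1592866-1593115 (minus), chr3:177197483-177197732 (minus) and chr4:56907650-56907899 (plus). The windows of GATAD2B and TBL1XR1 lie inside the GENCODE 29 gene models, before internal starts. Capitals mark matches, on either strand, to the GC box GGGCGG, the CCAAT box CCAAT and the TATA box TATAAA.

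SIN3A: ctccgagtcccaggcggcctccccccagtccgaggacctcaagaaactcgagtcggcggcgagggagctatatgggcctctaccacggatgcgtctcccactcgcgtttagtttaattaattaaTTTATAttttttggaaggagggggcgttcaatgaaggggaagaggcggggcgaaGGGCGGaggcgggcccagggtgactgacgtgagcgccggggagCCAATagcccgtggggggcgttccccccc

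GATAD2B: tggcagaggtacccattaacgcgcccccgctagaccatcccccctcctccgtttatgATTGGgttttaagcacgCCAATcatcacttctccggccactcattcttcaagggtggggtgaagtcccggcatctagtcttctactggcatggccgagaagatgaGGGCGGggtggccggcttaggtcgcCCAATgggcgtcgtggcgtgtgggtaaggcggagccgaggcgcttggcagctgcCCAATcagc

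MBD3: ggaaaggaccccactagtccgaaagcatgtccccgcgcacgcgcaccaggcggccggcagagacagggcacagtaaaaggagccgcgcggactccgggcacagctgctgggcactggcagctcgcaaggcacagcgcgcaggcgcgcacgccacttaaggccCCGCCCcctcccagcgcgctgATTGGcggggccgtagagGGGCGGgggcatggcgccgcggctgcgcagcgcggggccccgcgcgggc

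TBL1XR1: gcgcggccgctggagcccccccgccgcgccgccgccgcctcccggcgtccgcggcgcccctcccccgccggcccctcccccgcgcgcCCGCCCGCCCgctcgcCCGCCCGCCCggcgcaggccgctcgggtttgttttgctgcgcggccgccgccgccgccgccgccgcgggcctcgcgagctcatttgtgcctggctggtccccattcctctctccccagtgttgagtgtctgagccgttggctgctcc

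REST: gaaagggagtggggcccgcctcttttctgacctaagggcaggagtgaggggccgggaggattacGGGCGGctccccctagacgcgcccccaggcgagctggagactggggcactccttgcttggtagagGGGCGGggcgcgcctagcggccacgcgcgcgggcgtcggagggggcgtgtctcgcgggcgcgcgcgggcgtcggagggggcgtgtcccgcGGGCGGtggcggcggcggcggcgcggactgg

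All 5 windows hold a GC box, and in TBL1XR1 the matches overlap in runs. CCAAT occurs in SIN3A, MBD3 and, at 4 places, in GATAD2B, but in neither TBL1XR1 nor REST. Over all member windows the GC box was present in 78.3%, against 42.6% of the 35116 windows of all genes, and CCAAT in 39.1% against 32.0%. The members' windows were also richer in G and C, with a median of 71.6% against 58.0%, and a GC-rich window holds GGGCGG more often by its composition alone. Of the windows of members that rose with TSA, 6 of 11 held CCAAT, and of those that fell 1 of 11 did. These windows belong to only 6 and 7 genes. The GC box was in 9 of 11 and 6 of 11, and the TATA box in 2 of 11 and 2 of 11. Motifs named CRE, NRF1, ETS and E2F were also searched. They were in 0, 2, 1 and 1 of the 11 windows that rose and in 0 of those that fell. CCAAT thus had the widest split of several motifs searched, and no split was tested. These are matches of letters only.

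SIN3A, the scaffold of its complex (chr15:75369379-75455842, GRCh38), measured 51.6 and 40.5 CPM in DMSO replicates 1 and 2, 119.9 and 146 with TSA and 57.1 and 41.8 with E6R. Both TSA libraries lay above the other 4. The log2 fold change with TSA was 1.53 ± 0.24 (SE; 2.88-fold, adjusted p = 0.00401, edgeR), and with E6R against DMSO it was 0.10 ± 0.24 (95% interval -0.45 to 0.65). SAP130, a subunit that binds SIN3A, read 23.8 and 19.5 CPM with DMSO, 60.8 and 67.0 with TSA and 22.6 and 21.7 with E6R. Its rise with TSA was the largest of any member, 1.56 ± 0.22 (2.95-fold, adjusted p = 0.00261), and its E6R libraries sat among the DMSO libraries. SUDS3, which stabilises the core and contacts HDAC1, showed the same order, with 40.2 and 52.4 CPM in DMSO, 85.7 and 101 in TSA and 37.5 and 40.3 in E6R. It rose 2.01-fold with TSA (log2 1.01 ± 0.21, adjusted p = 0.0116).

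ING1, which reads methylated histone tails for the complex, had 13.2 and 14.2 CPM in DMSO, 31.4 and 36.0 in TSA and 19.8 and 14.3 in E6R. The TSA libraries were again above the rest, by 1.30 ± 0.27 over DMSO (adjusted p = 0.0102; the call was lost in 4 of 19 alternative settings, each with a library left out). Its paralogue ING2, with the same histone reader domain, came to 22.1 and 34.2, 45.6 and 52.2, and 25.4 and 24.8 CPM in the same order of groups. ING2 missed the threshold for TSA against DMSO (0.79 ± 0.26, adjusted p = 0.0507; DESeq2 called it, with 0.0334) and was lower with E6R than with TSA (-0.96 ± 0.25, adjusted p = 0.0194). SIN3B, the second scaffold gene, had 29.1 and 36.7 CPM with DMSO, 50.2 and 48.4 with TSA and 33.05 and 27.2 with E6R. BRMS1, named as a breast cancer metastasis suppressor, had 104 and 103, 160.1 and 129.6, and 89.6 and 97.6 CPM. In both genes the TSA libraries were the highest of the 6, neither passed against DMSO (adjusted p = 0.0857 and 0.0912), and both were lower with E6R than with TSA (-0.71 ± 0.22, adjusted p = 0.0357, and -0.63 ± 0.19, adjusted p = 0.033). The E6R against TSA call of SIN3B was lost in 11 of 19 alternative settings and that of BRMS1 in 10.

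SAP30, which bridges SIN3 to other repressors, was the exception among SIN3 subunits. It measured 24.2 and 27.0 CPM in DMSO, 27.2 and 24.8 in TSA and 54.0 and 42.6 in E6R, so the E6R libraries were the highest. Against TSA it was 0.89 ± 0.22 higher (1.85-fold, adjusted p = 0.0155), and against DMSO the difference was 0.91 ± 0.23 with an adjusted p of 0.205. SAP18, SAP30L, ARID4A, ARID4B and BRMS1L passed in no comparison. Their log2 differences between TSA and DMSO ran from -0.26 for ARID4B to 0.54 for SAP30L.

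RBBP4 and RBBP7, paired WD40 histone chaperones found in SIN3, NuRD and several other chromatin complexes, were at their highest in the E6R libraries. RBBP4 had 47.0 and 41.1 CPM with DMSO, 46.8 and 51.5 with TSA and 105 and 86.9 with E6R. The difference of E6R from DMSO was 1.12 ± 0.20 (2.18-fold, adjusted p = 0.205), the largest of any member in that comparison, and E6R was 0.97 ± 0.20 above TSA (adjusted p = 0.0071). RBBP7 had 124 and 126, 159.8 and 137, and 199.5 and 183 CPM, and passed in no comparison (E6R against DMSO 0.61 ± 0.19, adjusted p = 0.215). Genes of DNA replication were, in sum, also highest with E6R. The 15 S-phase genes summed to 2240 and 1788 CPM in DMSO, 2057 and 2369 in TSA and 2799 and 3260 in E6R. By group mean, CDC6, RRM2 and UHRF1 were highest with TSA, CLSPN with DMSO and the others with E6R. CDC6 had 231 and 305 CPM with TSA and 125 and 173 with E6R. Of the 15 genes, 11 had an unadjusted p below 0.05 for E6R against DMSO in edgeR, all without an adjusted call. Of all genes 17.4% had such an unadjusted p. The 10 genes of a list for the G2 and M phases were not highest with E6R in sum. They summed to 2291 and 2726 CPM in DMSO, 2395 and 2547 in TSA and 2467 and 2653 in E6R. Of these 10 genes, 3 had an unadjusted p below 0.05 for E6R against DMSO. The part of cell cycle composition in the 7 members at that unadjusted threshold was not tested.

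**Figure D2:**
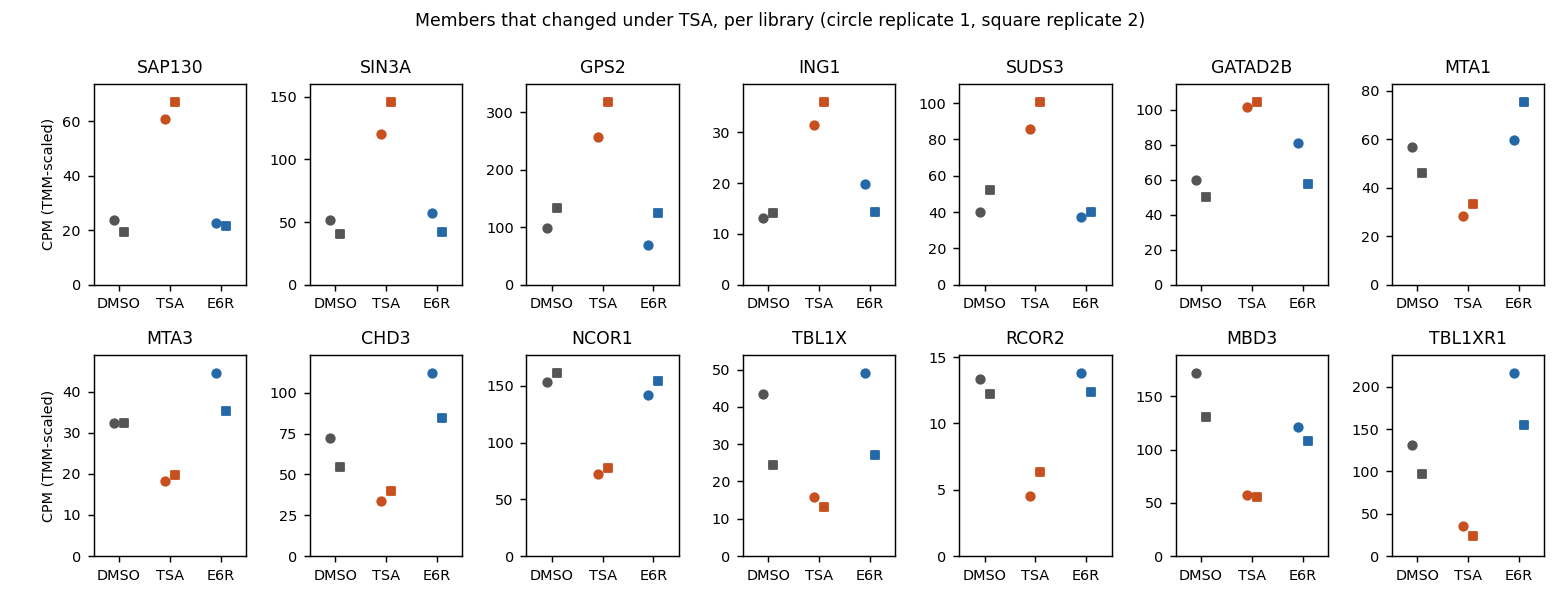
CPM after TMM scaling (y axis, from 0) of the 14 members that changed with TSA, in each library of the 3 groups; circles are replicate 1 and squares replicate 2. In every panel both TSA points lie on the same side of both DMSO points, and in 8 of the 14 panels the DMSO and E6R points overlap in range.

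MBD3, the NuRD subunit that marks a form of the complex distinct from that with the methyl-DNA reader MBD2, had 171 and 130.4 CPM with DMSO, 57.3 and 55.0 with TSA and 121 and 108 with E6R. It fell 2.69-fold with TSA (log2 -1.43 ± 0.21, adjusted p = 0.00292), with no overlap between groups. The E6R libraries lay between the other groups, at -0.40 ± 0.20 from DMSO (adjusted p = 0.348) and 1.03 ± 0.20 above TSA (adjusted p = 0.00637). MBD2 did not follow, with 28.3 and 41.7, 41.5 and 40.4, and 41.4 and 45.4 CPM and no adjusted p below 0.502.

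CHD3 and CHD4 are the alternative chromatin-remodelling ATPases of NuRD. CHD3 measured 72.2 and 54.5 CPM in DMSO, 33.8 and 39.8 in TSA and 112 and 84.6 in E6R, and the groups were fully separate. The change with TSA was -0.78 ± 0.24 (1.72-fold lower, adjusted p = 0.0401), a call lost in 6 of 19 alternative settings, 3 of them with all libraries kept (adjusted p up to 0.251). It was 1.42 ± 0.24 higher with E6R than with TSA (2.67-fold, adjusted p = 0.00316), and this call was kept in all 19. CHD4 had 720.0 and 730.2, 454 and 535, and 859.5 and 700.0 CPM. Its TSA libraries were the lowest, but the difference from DMSO missed the threshold (-0.55 ± 0.21, adjusted p = 0.0791; 0.0418 in DESeq2 and 0.0174 with total counts only) while that between E6R and TSA passed (0.66 ± 0.21, adjusted p = 0.038).

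Among the MTA scaffolds, which hold HDAC1 and HDAC2 in NuRD, MTA1 and MTA3 fell with TSA and MTA2 did not pass. MTA1 had 56.7 and 46.1 CPM with DMSO, 28.2 and 33.3 with TSA and 59.6 and 75.3 with E6R (TSA -0.74 ± 0.23, adjusted p = 0.042; E6R over TSA 1.14 ± 0.23, adjusted p = 0.00629). MTA3 had 32.3 in both DMSO libraries, 18.3 and 19.8 with TSA and 44.4 and 35.3 with E6R (TSA -0.76 ± 0.22, adjusted p = 0.0371; E6R over TSA 1.06 ± 0.22, adjusted p = 0.00766). In each the TSA libraries were the lowest and those of E6R the highest. The TSA calls of MTA1 and MTA3 were each lost in 6 of 19 alternative settings, 2 of them with all libraries kept (adjusted p up to 0.247 and 0.213). MTA2 had 15.1 and 22.2, 20.7 and 27.0, and 35.4 and 26.3 CPM. GATAD2B, which bridges the deacetylase and remodelling modules of NuRD, was the NuRD member that rose with TSA: 59.7 and 49.9 CPM in DMSO, 102 and 104 in TSA and 80.6 and 57.3 in E6R, a change of 0.91 ± 0.23 (1.88-fold, adjusted p = 0.0201), with the call lost in 6 of 19 settings, 2 with all libraries kept. Its paralogue GATAD2A had 97.3 and 95.2, 128 and 176, and 132 and 111 CPM and missed the threshold (0.66 ± 0.22, adjusted p = 0.0551; DESeq2 called it, with 0.0411).

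KDM1A, the histone demethylase also called LSD1 that is the second enzyme of CoREST, did not differ detectably between TSA and DMSO. It had 98.2 and 105 CPM with DMSO, 95.03 and 106 with TSA and 162 and 160.2 with E6R, so the E6R libraries stood above the other 4. E6R was 0.68 ± 0.18 above TSA (1.6-fold, adjusted p = 0.019) and 0.67 ± 0.18 above DMSO (adjusted p = 0.205), while TSA and DMSO differed by -0.01 (95% interval -0.43 to 0.40). The CoREST scaffold genes split. RCOR2, a paralogue of the main scaffold RCOR1, had 13.4 and 12.2, 4.56 and 6.36, and 13.8 and 12.3 CPM and fell 2.35-fold with TSA (-1.23 ± 0.32, adjusted p = 0.0244). RCOR3 had 33.4 and 24.7, 23.0 and 20.1, and 41.4 and 34.4 CPM and was higher with E6R than with TSA (0.81 ± 0.24, adjusted p = 0.0319). The call of RCOR2 with TSA and that of RCOR3 between E6R and TSA were each lost in 5 of 19 alternative settings. RCOR1, the main CoREST scaffold, passed in no comparison and differed between the E6R libraries (123 and 57.4 CPM).

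In NCoR the scaffold NCOR1, which docks onto nuclear receptors and activates HDAC3, had 153 and 161 CPM with DMSO, 72.2 and 77.3 with TSA and 141 and 154 with E6R. It fell 2.1-fold with TSA (-1.07 ± 0.18, adjusted p = 0.00503). E6R did not differ detectably from DMSO (-0.08 ± 0.18, 95% interval -0.50 to 0.33), though E6R replicate 1 lay below both DMSO libraries. TBL1XR1, a WD40 subunit that takes part in exchanging corepressors for coactivators, showed the largest change of any member. Its libraries read 132 and 96.4 CPM in DMSO, 35.9 and 23.4 in TSA and 216 and 154 in E6R, 3 separate groups. The fall with TSA was 3.83-fold (-1.94 ± 0.29, adjusted p = 0.00342), E6R was 6.23-fold above TSA (2.64 ± 0.30, adjusted p = 0.000798), and E6R against DMSO gave 0.70 ± 0.28 (adjusted p = 0.265). TBL1X, its X-linked paralogue, had 43.6 and 24.5, 15.9 and 13.1, and 49.0 and 27.2 CPM and fell with TSA as well (-1.23 ± 0.38, adjusted p = 0.042).

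GPS2, the small subunit that joins NCOR1 and the TBL1 proteins, moved the other way from its partners. It measured 98.6 and 133 CPM in DMSO, 258 and 318 in TSA and 68.9 and 124 in E6R. It rose 2.49-fold with TSA (1.31 ± 0.31, adjusted p = 0.0167) and was 2.98-fold lower with E6R than with TSA (-1.57 ± 0.31, adjusted p = 0.00613). The GENCODE 29 models of GPS2 and the abundant gene EIF5A, on the other strand, share 1140 bases, and the strand setting of the counting is not given in the sources used here. EIF5A measured 594 and 609 CPM with DMSO, 402 and 462 with TSA and 462 and 1054 with E6R, with a TSA difference of -0.48 (adjusted p = 0.329). In all, 12 of the 33 members overlap another protein-coding gene. Among the members that changed with TSA these are ING1, CHD3, MTA1, MBD3, NCOR1, TBL1X and GPS2, and of their tested neighbours (CARS2, NAA38, TEX22, TTC19, PIGL and EIF5A) none passed for TSA against DMSO. Neighbours outside the genes tested were AC026954.2, which shares 2904 bases with GPS2 on the same strand, and AC005943.1, which shares 14463 with MBD3 on the same strand. GPR143, on the other strand from TBL1X, was not tested either. The part of reads from overlapping genes in the counts of these members was not tested.

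REST, the zinc-finger repressor of neuronal genes, varied more between replicates than any other member in the DMSO and E6R groups. It had 55.0 CPM in DMSO replicate 1 and 17.8 in replicate 2, 27.7 and 22.9 with TSA, and 69.0 and 11.5 with E6R. The replicate log2 ratio was 1.63 in DMSO and 2.58 in E6R, as large or larger in only 1.94% and 0.795% of genes of like abundance. REST passed in no comparison and its intervals were the widest of the members (-2.30 to 1.26 for TSA against DMSO, -1.62 to 1.90 for E6R against DMSO). NOA1, which overlaps REST on the other strand over 3309 bases, had 32.7 and 31.8 CPM in DMSO, 119.9 and 98.4 in TSA and 43.7 and 43.9 in E6R and did not share that replicate pattern.

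Of 16 genes known as REST targets, 13 were higher in replicate 2 than in replicate 1 in each of the 3 groups, but not the same 13. The 3 that were lower in replicate 2 were STMN2, BDNF and CHGA in DMSO. They were SCN3A, GRIN1 and VGF in TSA, and SYT4, SCN3A and CHGA in E6R. The median log2 ratio of replicate 2 to replicate 1 was 0.87 in DMSO, 1.19 in E6R and 0.19 in TSA, while over all genes 50.3%, 52.2% and 47.8% were higher in replicate 2. VGF, a secreted neuropeptide precursor, had 164 and 1608 CPM in DMSO, 139.6 and 1807 in E6R, and 2537 and 2278 in TSA. The replicates also differed in markers of other kinds. Endothelial markers summed to 38.7 and 2.49 CPM in DMSO, 4.48 and 2.35 in TSA and 54.5 and 0.564 in E6R, and adrenergic markers to 933 and 1415, 649.5 and 734, and 949 and 2030. Mesenchymal markers summed to 1157 and 750.3 CPM in DMSO, 3284 and 2188 in TSA and 1968 and 1278 in E6R, so they were lower in replicate 2 in each group, as REST was. FN1 of that list had 114 and 19.3 CPM in DMSO, 380 and 373 in TSA and 199.9 and 13.1 in E6R. VIM was the only one of the 6 tested that rose with TSA (1.46 ± 0.31, adjusted p = 0.0113). The part of cell state or culture in the REST difference was not tested.

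**Figure D3:**
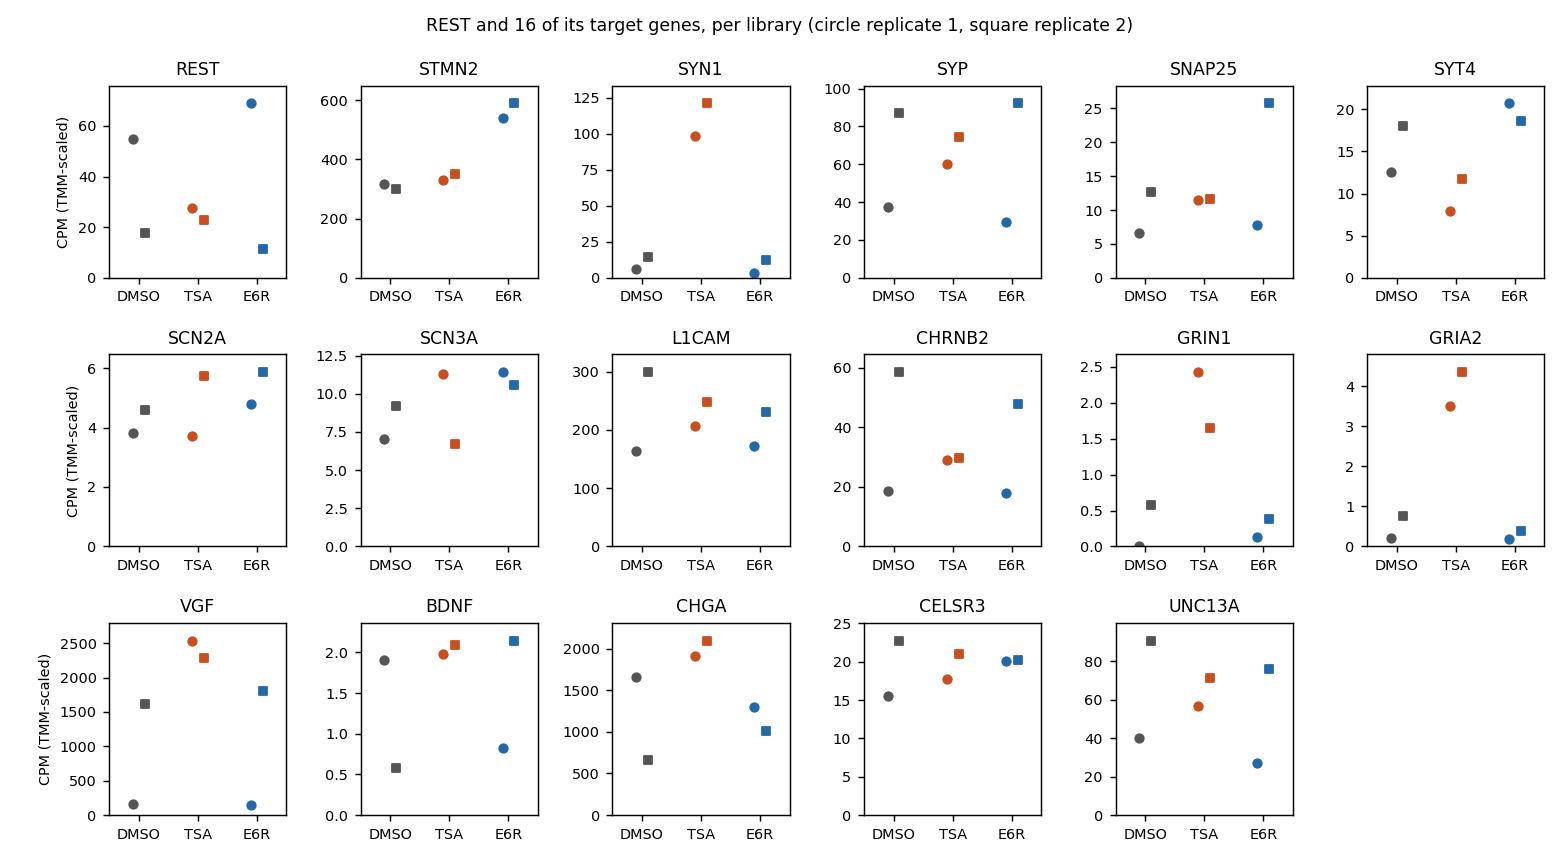
CPM after TMM scaling (y axis, from 0) of REST and 16 of its target genes in each library; circles are replicate 1 and squares replicate 2. REST is lower in replicate 2 in all 3 groups, while SYP, CHRNB2 and UNC13A among others are higher in replicate 2; SYN1 and GRIA2 are highest in both TSA libraries.

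Between groups, 2 of the 16 targets (12.5%) rose with TSA, against 16.2% of all genes. SYN1, a synaptic vesicle protein, went from 5.74 and 14.5 CPM to 98.1 and 121, with 2.97 and 12.4 in E6R (TSA 3.42 ± 0.66, adjusted p = 0.00807). GRIA2, a glutamate receptor subunit, went from 0.212 and 0.765 CPM to 3.49 and 4.35 (2.95 ± 0.73, adjusted p = 0.0199). None passed for E6R against DMSO. E6R against TSA called 5 (31.2%, against 38.2% of all genes), with SYN1 (-3.81), GRIA2 (-3.70) and GRIN1 (-2.90), another glutamate receptor subunit, lower with E6R and STMN2 and SYT4 higher. Counts behind GRIN1 and GRIA2 were few outside TSA, so their fitted fold changes depend on the prior count.

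Paralogues often take the same place in a complex in alternative assemblies. Each family's UMIs were also split by member. The share of a gene in its family needs no scaling between libraries. In the MBD2 and MBD3 pair, MBD3 took 85.8% and 75.8% of UMIs in DMSO, 58.0% and 57.7% in TSA and 74.5% and 70.4% in E6R. The mean fell by 23.0 percentage points with TSA. SAP30 took 34.0% and 41.2% of its pair with SAP30L in DMSO, 28.6% and 30.5% in TSA and 53.7% and 59.4% in E6R, 27.0 points more with E6R than with TSA. SIN3A took 64.0% and 52.5% of SIN3 scaffold UMIs in DMSO, 70.5% and 75.1% in TSA and 63.3% and 60.5% in E6R.

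RCOR2 made up 9.05% and 9.32% of RCOR UMIs in DMSO, 3.49% and 3.79% in TSA and 7.72% and 11.9% in E6R. ARID4A, which pairs with ARID4B, passed no expression test but held 28.4% and 31.6% of its pair in DMSO, 40.0% and 38.9% in TSA and 30.7% and 32.7% in E6R. MTA2 held 14.5% and 22.1% of MTA UMIs in DMSO, 30.9% and 33.7% in TSA and 25.4% and 19.2% in E6R, so its share was highest in TSA. Exact binomial 95% intervals on these shares cover counting error only. In 10 of 12 families a share did not overlap between TSA and DMSO, in 6 between E6R and DMSO and in 10 between E6R and TSA. A family holds 2 or 3 shares that are not independent, and the levels of 71.3%, 47.3% and 72.6% of all genes did not overlap in the same comparisons. With 2 libraries per group an exact permutation test cannot go below p = 0.33, so no share difference was tested beyond that.

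**Figure D4:**
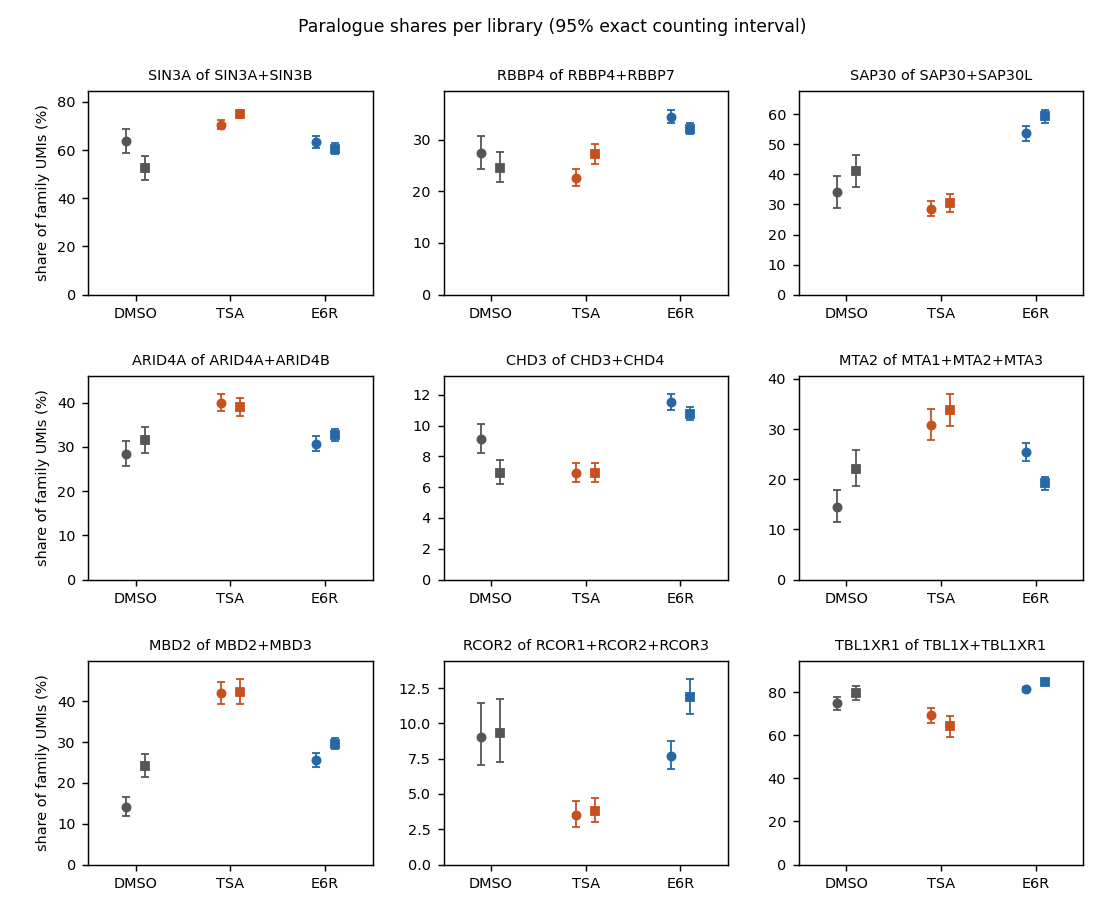
Share of a family's UMIs taken by the named member (y axis, percent, from 0) in each library, for 9 of the 12 families; error bars are 95% exact binomial intervals and show counting error only, circles are replicate 1 and squares replicate 2. The MBD2 share rises from 14.2% and 24.2% in DMSO to 42% and 42.3% in TSA, and the SAP30 share is highest in E6R.

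The deacetylases themselves and other partners of these complexes were followed in a list of 32 genes. HDAC1 rose from 66.3 and 51.8 CPM to 154 and 159 with TSA (1.41 ± 0.20, adjusted p = 0.00267), and HDAC3 from 34.0 and 44.2 to 121 and 104 (1.52 ± 0.21, adjusted p = 0.00262). Their E6R libraries had 74.3 and 78.2 CPM for HDAC1 and 33.7 and 35.4 for HDAC3, and neither passed against DMSO (adjusted p = 0.366 and 0.692). HDAC2 (240.1 and 184, 290.5 and 277, and 343 and 289 CPM) passed in no comparison. So with TSA HDAC3 rose while its scaffold NCOR1 and the WD40 subunits fell.

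Of the 32 partners 15 (46.9%) changed with TSA, 7 higher and 8 lower, against 29.7% of all genes and 38.7% of genes in the members' range of abundance. None passed for E6R against DMSO. Between E6R and TSA 19 (59.4%) differed, 11 higher and 8 lower with E6R, against 38.2% and 45.8%. The largest with TSA were HMG20B, a CoREST subunit (61.6 and 47.6 CPM to 229 and 286; 2.24 ± 0.26, adjusted p = 0.00152), CORO2A, found with NCoR (529.6 and 507 to 102 and 123; -2.21 ± 0.26, adjusted p = 0.00159) and CTBP2, a corepressor that binds CoREST (219 and 199 to 49.2 and 47.2; -2.11 ± 0.27, adjusted p = 0.00202). Between E6R and TSA they were SINHCAF, a SIN3 subunit (148 and 137 CPM with E6R, 23.0 and 20.6 with TSA, 83.9 and 64.5 with DMSO), ZMYND8, a bromodomain reader linked to NuRD (154 and 129, 23.0 and 24.4, and 98.4 and 76.7), and HMG20B, which was lower with E6R (64.7 and 45.1 CPM). The log2 differences were 2.71 ± 0.21, 2.58 ± 0.22 and -2.23 ± 0.26, with adjusted p of 0.000323, 0.000399 and 0.000862.

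Within each replicate number, the TSA to DMSO ratio had the same direction in both numbers for 28 of the 33 members, and for all 14 that were called. For E6R against TSA this held for 26 members and for all 21 called. For E6R against DMSO it was 26 of 33. No called member had overlapping groups, and groups that do not overlap have the same direction in both numbers by necessity. The agreement of the called members is therefore no separate support. The share of all genes with the same direction in both numbers was not computed. The libraries of E6R and DMSO did not overlap for 17 members, against 47.3% of all genes, with 13 above DMSO and 4 below, against 24.6% and 22.7% of all genes. For TSA and DMSO 27 members did not overlap (15 above and 12 below DMSO), against 71.3% of all genes (36.7% above and 34.6% below). For E6R and TSA 26 did not (15 above and 11 below TSA), against 72.6% of all genes (33.7% and 38.9%). The members called in neither comparison with TSA were SAP18, SAP30L, ARID4A, ARID4B, BRMS1L, RBBP7, MTA2, MBD2, GATAD2A, RCOR1 and REST. Their difference from DMSO was at most 0.66 on the log2 scale with TSA.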

How the data were processed

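Human SK-N-BE(2)-C cells were profiled in 6 libraries (DMSO, TSA and E6R, 2 each). The deposited matrices hold raw UMI counts per gene and barcode. Per the submitters' processing notes they came from STARsolo 2.7.9a and GRCh38. Annotation, strand setting and barcode filter of the authors' counting: not given in the sources used here. Here cells were barcodes with 500 or more genes and at most 20% mitochondrial UMIs. No doublet caller was run. Counts were summed per library, low genes were removed with filterByExpr, and edgeR 4.0.16 (R 4.3.3, limma 3.58.1) fitted 1 quasi-likelihood model over all 6 libraries with TMM scaling. P-values were adjusted by Benjamini-Hochberg over 16763 genes, separately for each comparison. A gene was called at an adjusted p below 0.05. Standard errors come from the F statistic. CPM are TMM-scaled. The code was tested on simulated data. Alternatives were RLE or total-count scaling, DESeq2 1.42.0, no low-count filter, a replicate block, each library left out, other cell filters, removal of the 5% of cells with most UMIs, and thinning.

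The members and lists were chosen with earlier results of these data known. Library values are given for every member called in any comparison and for SIN3A, CHD4, KDM1A, REST and NCOR1. From the partner and target lists HDAC1, HDAC2 and HDAC3 were named, with the 3 largest called changes. A further gene named by that rule is not reported here. Other named genes were chosen after their values were seen. Gene positions are from GENCODE 29 on GRCh38, and promoters from RefSeq on GRCh38.p14.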

Additional observations from a re-analysis of the deposited data

How the results depend on the processing

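No called member reversed under any alternative: 35 called values gave 665 values, of which 564 kept the call and 101 lost it, and 425 of 455 kept it where all libraries stayed in. The members called for TSA against DMSO ranged from 4 to 16 when a library was left out and from 10 to 17 otherwise. For E6R against TSA they ranged from 7 to 20 and from 14 to 23, and for E6R against DMSO they were 0 in every leave-one-out fit, 3 with DESeq2 and 4 without the low-count filter. Where all libraries stayed in, 18.7% to 39.8% of all genes were called for TSA against DMSO and 24% to 45.1% for E6R against TSA. For E6R against DMSO the share was 2.65% with DESeq2 and 3.47% without the low-count filter. SIN3A, SAP130 and TBL1XR1 kept their calls in both comparisons with TSA throughout. Total counts alone moved the median of all genes to -0.32 for TSA and -0.10 for E6R against DMSO.

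The labels share only a replicate number across groups. Deviations of same-numbered libraries correlated at 0.242 (DMSO and TSA), 0.564 (DMSO and E6R) and 0.166 (TSA and E6R) over 7515 genes. With the replicate number as a block the counts were 16, 0 and 23. The share of all genes called moved too, to 36.1%, 0.113% and 45.1%, from 29.7%, 0% and 38.2% without the block. With the block ING2 (adjusted p = 0.0252) and GATAD2A (0.0407) were called for TSA against DMSO.

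The values that changed sign were not called. For TSA against DMSO, REST ran from -1.20 to 0.55 over the fits with a library left out, and KDM1A from -0.0539 to 0.0912, with 0.0145 from 300 genes per cell and 0.0936 over all barcodes. For E6R against DMSO, REST ran from -1.55 to 1.32, with -0.0058 under total counts only and -0.0522 with the replicate block. SIN3A ran from -0.0336 to 0.42, with -0.0372 under total counts only and -0.0446 from 1000 genes per cell. NCOR1 ran from -0.11 to 0.0859, with 0.0803 without the low-count filter and 0.0392 over all barcodes. CHD4 was -0.0301 with total counts only and -0.0158 with thinned sums. REST for E6R against TSA ran from -1.06 to 1.47. The causes were not tested.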
